A study of Mus musculus with 6 samples.

Results

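The regions described here are the megabase stretches of the mouse genome in which CpG methylation was least raised in G1 cells relative to G2/M cells, called least-excess bins below. They were selected on the measured values themselves. Windows of 100 CpGs on the 19 autosomes were grouped into bins of 1 Mb by chromosome and start position, bins with fewer than 50 windows were set aside, and the mean over windows of the difference between the 3 G1 and the 3 G2/M libraries was taken as the value of the bin. The 10% of bins with the lowest value were kept. This gave 234 of 2343 bins, which hold 46797 of the 359192 windows of the whole table and 226.854 Mb of sequence within windows. Of the autosomal windows, 1491 in 64 sparsely covered bins were not used.

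The cells were E14TG2a mESCs, a mouse embryonic stem cell line of strain 129/Ola, used between passages 5 and 28 and grown in serum with LIF. They were labelled with EdU, fixed in ethanol and stained with propidium iodide, and cells before replication (G1) and after it (G2/M) were sorted by DNA content, without any genetic change or drug treatment that set one group apart. For each population, 3 biological replicates were taken, numbered 1 to 3 in both, and G1 and G2/M libraries of the same number are called a matched pair. From 125 ng of DNA per library, EM-seq converted unmodified cytosines enzymatically, so that 5-methylcytosine and 5-hydroxymethylcytosine were read together as methylated. The deposited values are percentages without read counts, so the depth behind each value is unknown and no interval for counting error is given. Expression was not measured, and the identity of the cells was not checked against marker genes here.

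A newly replicated DNA duplex is hemimethylated, with the old strand carrying methyl groups and the new strand lacking them. The maintenance methyltransferase DNMT1, guided by UHRF1, which binds hemimethylated CpGs, copies the pattern onto the new strand, and part of this restoration takes place after the replication fork has passed. G2/M cells are therefore compared with G1 cells to ask how complete the pattern is before division. Mammalian genomes are CpG-poor outside CpG islands, so the length of a window that spans a fixed number of CpGs is a measure of local CpG density, short windows being CpG-dense.

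The stretches below show what the bins were built from. All are given 5′ to 3′ on the plus strand of GRCm38, are 200 bases long and lie at the centre of their window, and capitals mark CpG. The first is from the window with the largest deficit in G1 in the lowest bin of all, chr16:17000000-17999999, and lies at chr16:17279947-17280146 in an intron of Tmem191c. The next pair is from the shortest and the longest eligible window of the same bin, at chr16:17618643-17618842, outside coding genes in the window that holds the start of Smpd4, and at chr16:17375111-17375310, in an intron of Pi4ka. The last pair is from the shortest and the longest eligible window of the bin with the highest value, chr16:54000000-54999999, at chr16:54135298-54135497 and chr16:54038306-54038505, both outside coding genes. Windows whose central bases touched an exon, or which spanned over 100 CpGs of the reference, were not eligible. The sequence of the first was added after its values were seen.
lowest bin, largest G1 deficit: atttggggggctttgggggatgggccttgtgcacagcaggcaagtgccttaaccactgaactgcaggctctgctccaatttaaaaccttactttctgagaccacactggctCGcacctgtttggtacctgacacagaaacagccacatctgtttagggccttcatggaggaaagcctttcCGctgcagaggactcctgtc
lowest bin, shortest window: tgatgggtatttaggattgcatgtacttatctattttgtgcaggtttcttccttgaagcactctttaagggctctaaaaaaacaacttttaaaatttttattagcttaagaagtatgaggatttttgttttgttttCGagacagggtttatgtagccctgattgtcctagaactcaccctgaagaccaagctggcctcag
lowest bin, longest window: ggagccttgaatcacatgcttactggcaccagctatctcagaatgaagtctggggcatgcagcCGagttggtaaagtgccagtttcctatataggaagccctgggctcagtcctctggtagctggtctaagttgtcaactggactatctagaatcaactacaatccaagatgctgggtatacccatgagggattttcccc
highest bin, shortest window: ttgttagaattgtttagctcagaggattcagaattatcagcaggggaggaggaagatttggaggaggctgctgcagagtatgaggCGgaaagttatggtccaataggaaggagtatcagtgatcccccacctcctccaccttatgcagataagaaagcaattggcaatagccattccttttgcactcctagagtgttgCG
highest bin, longest window: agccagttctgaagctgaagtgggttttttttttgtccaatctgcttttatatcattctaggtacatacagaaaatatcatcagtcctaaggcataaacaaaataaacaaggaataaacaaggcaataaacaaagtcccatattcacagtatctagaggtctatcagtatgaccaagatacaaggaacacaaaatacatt

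A window named for 100 CpGs held a median of 51 CpG dinucleotides of the reference when both strands were counted as 1. The windows above spanned very different lengths for nearly the same number of CpGs. In the lowest bin, the shortest of them covered 1717 bp with 53 CpGs of the reference and the longest 11323 bp with 51. In the highest bin the lengths were 2838 bp and 17124 bp, with 51 and 50 CpGs. The window at the start of Smpd4 was nearly unmethylated in all libraries but one, with 4.65%, 0% and 30.0% in G1, compared with 5.15%, 3.66% and 0% in G2/M. The long window in Pi4ka, which encodes a phosphatidylinositol 4-kinase, read 65.3%, 69.6% and 67.4% in G1 versus 72.0%, 66.6% and 79.8% in G2/M, so that G1 was lower in pairs 1 and 3 and higher in pair 2.

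Methylation did not run higher in G1 in the least-excess bins, whereas it did in the rest of the autosomes. Mean methylation over the least-excess windows was 55.8%, 54.0% and 62.4% in G1 replicates 1 to 3, whereas the G2/M replicates read 56.3%, 55.0% and 62.8%. In each matched pair the G1 library was the lower one, with differences of -0.474, -1.04 and -0.378 percentage points. The mean difference, G1 minus G2/M, was -0.632 ± 0.360 points (SD, n = 3 pairs). Over the other 2109 bins the G1 libraries read 64.2%, 61.8% and 70.1% and the G2/M libraries 62.6%, 60.9% and 69.3%, and there G1 was the higher one in each pair, with a mean difference of 1.08 ± 0.384 points (SD, n = 3). In the 234 bins with the highest value the mean difference was 2.86 ± 0.527 points (SD, n = 3). The contrast between the classes was fixed by the way the bins were chosen, so these values are a description. The 2 phases overlapped fully in level, because replicate 3 lay about 8 points above replicate 2 in both, with a range of 8.44 points in G1 against 7.77 in G2/M. The sign of the pooled value therefore rests on each replicate being present in both phases. When the bins were chosen and measured without a single library, the mean difference became 0.0878 without G1 replicate 1, 1.00 without G1 replicate 2 and -3.20 without G1 replicate 3. Leaving out G2/M replicate 1 gave -1.57, leaving out replicate 2 of that phase -2.19 and leaving out its replicate 3 a value of 1.68. Leaving out whole pairs kept the difference between -0.831 and -0.520.

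**Figure D1:**
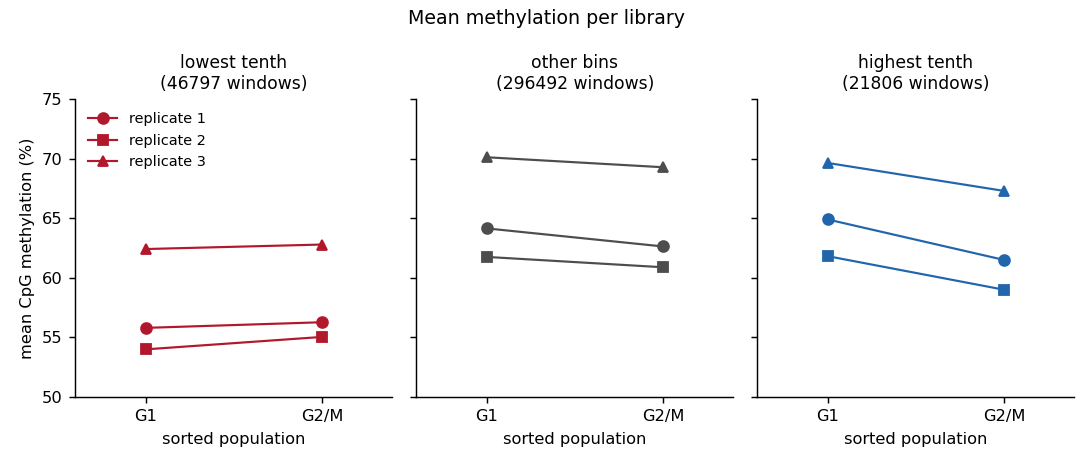
Mean CpG methylation in percent of each library, over the windows of the 234 least-excess bins (left), of the other bins and of the 234 bins with the highest value, which are part of the other bins. Lines join G1 and G2/M libraries of the same replicate number; they rise slightly toward G2/M in the first panel and fall in the other panels, and replicate 3 lies above the others throughout.

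Because the choice used all libraries, the same rule was applied to 2 pairs at a time and the chosen bins were measured in the pair left out. With pair 1 left out, the chosen bins read 57.1% in G1, compared with 57.0% in G2/M of that pair, a difference of 0.0650 points, against 1.43 in the other bins. With pair 2 left out they read 54.5% and 55.1%, a difference of -0.621 points against 0.794. With pair 3 left out they read 62.4% and 62.5%, a difference of -0.102 points against 0.796. In each of the 3 cases the chosen bins lay below the other bins, at -1.36, -1.41 and -0.898 points relative to them, with a mean of -1.22 ± 0.284 points (SD, n = 3 choices, which share libraries and are not independent). The deficit seen in the choosing pairs, -0.822, -0.520 and -0.831 points, was thus not carried over at its full size in pairs 1 and 3. Relative to the other bins, the chosen bins stood at -1.69, -1.70 and -2.03 points in the choosing pairs. That gap was smaller in the pair left out in all 3 cases, pair 2 included. In the pair left out, the difference of the chosen bins lay close to 0 in pairs 1 and 3 and below 0 in pair 2. Of each 234 chosen bins, 222, 221 and 214 lay below the mean of the other bins in the pair left out. Fewer were below 0 there, namely 113, 168 and 127, or 48.3%, 71.8% and 54.3%, compared with 9.25%, 21.9% and 17.3% of the other bins. The absence of a G1 excess was thus seen again in libraries the choice had not used, while a lower level in G1 than in G2/M was seen again in pair 2 but not clearly in pairs 1 and 3. The choices shared 165, 175 and 191 bins with the least-excess bins, and 110 bins were in all 3 choices, all of them least-excess bins.

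**Figure D2:**
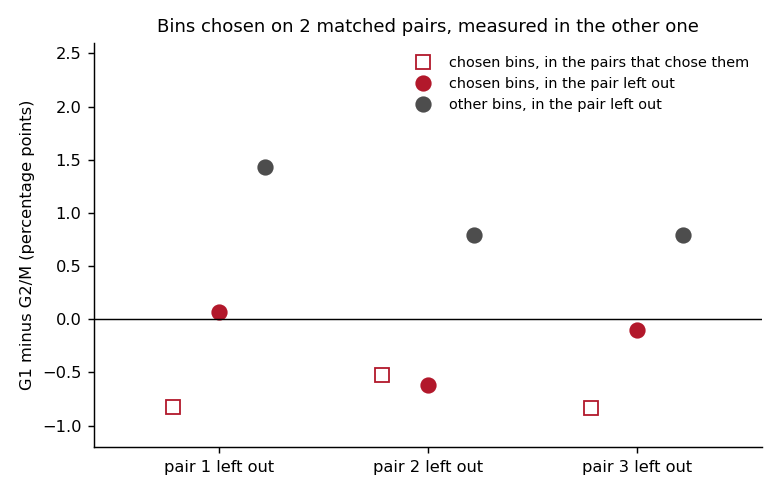
Difference between G1 and G2/M in percentage points for bins chosen on 2 matched pairs. Open squares give the chosen bins in the pairs that chose them, filled red circles the same bins in the pair left out and grey circles all other bins in that pair. The red circles lie at 0.0650, -0.621 and -0.102, each below the grey circle beside it.

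Taken alone, each pair chose a partly different set. The 234 lowest bins of pair 1 shared 91 with those of pair 2, which is 38.9% of each set, and 71 with those of pair 3, or 30.3%, and pairs 2 and 3 shared 64, or 27.4%. There were 34 bins in all 3 sets. Of the least-excess bins, 34 were in the lowest 10% of each pair, 109 in that of 2 pairs, 86 in that of 1 pair and 5 in none. Across the 2343 bins the differences of pairs 1 and 2 had a Pearson r of 0.633 and a Spearman rho of 0.644, with 0.535 and 0.543 for pairs 1 and 3 and 0.537 and 0.547 for pairs 2 and 3. These are given as a description, since bins share libraries and neighbouring bins share sequence context.

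Among the least-excess bins the difference was below 0 in pair 1 in 181 bins, in pair 2 in 216 and in pair 3 in 170. Over all bins the corresponding shares were 13.1%, 26.9% and 21%. In 107 least-excess bins all 3 pairs were below 0, as in 4.74% of all bins and in 4 of the other 2109. As these are the values the choice used, nothing is read from the counts. The difference averaged over pairs was below 0 in 15.6% of all bins, so the selection ended inside the range of negative values. The last bins taken in had values of -0.236, -0.234 and -0.232 points, and the first ones left out -0.230, -0.229 and -0.228, so no gap separated them. Bin values ran from -2.11 to 4.04 with a median of 1.03, and those of the least-excess bins had a median of -0.554.

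At the level of single windows the shift was small beside the scatter. The difference was below 0 in 53.6% of least-excess windows and in 40.9% of the other windows, and its median was -0.492 and 1.11 points. The middle 80% of least-excess windows ran from -8.12 to 6.71 points. In 1635 of them, 3.49%, all 3 G1 libraries lay below all 3 G2/M libraries, as against 1.96% of all windows. In 1191, 2.55%, all G1 libraries lay above all G2/M libraries, as against 4.05% of all windows. All 3 pairs were below 0 in 14.3% of least-excess windows and in 9.79% of all windows. The choice used these same differences, so the shares and medians of this paragraph are a description. Within a least-excess bin the windows had a median SD of 5.83 points, which over their number gives a median standard error of 0.409 points if windows are taken as independent, and 0.431 in the other bins.

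Tested bin by bin with limma on the mean percentage per bin, without a block, no bin passed the test of G1 against G2/M. That fit leaves out the pairing and counts the spread between replicates as error, with a range of 8.44 points over least-excess windows in G1. It could therefore detect little, and its result does not show that the phases were equal. None of the 2343 bins (0%) had an adjusted p under 0.05, and none an unadjusted p under 0.05. With the replicate number as a block, limma called 1092 bins at an adjusted p under 0.05. In 1076 of these, 45.9% of all bins, G1 was higher, and in 16, 0.683% of all bins, it was lower. All 16 were least-excess bins and no least-excess bin was among the 1076. Since the choice used this contrast, the counts are descriptive. The other 218 least-excess bins passed in neither direction, which does not show that they were equal in both phases. Centring each library on its median sets the typical window to no difference. With that added, the blocked fit called 373 bins higher and 288 lower in G1, relative to the typical window. Of the 234 least-excess bins, 232 were among the latter, which largely restates the choice.

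The 5 lowest bins carried known genes of varied function. The lowest, chr16:17000000-17999999, with Pi4ka, Med15, Dgcr2 and Gm20518 as its genes of largest overlap, read 50.7%, 51.8% and 59.0% in G1 versus 54.4%, 53.0% and 60.5% in G2/M. Its difference was -2.11 points and below 0 in each pair. Med15 encodes a subunit of Mediator, the complex that links transcription factors to RNA polymerase II. One window of this bin, chr16:17736154-18522428, spanned 786275 bp and 9603 CpGs of the reference, against a median of 51 CpGs per window, and without it the bin stood at -2.14 points. The next bin, chr6:120000000-120999999, holds Ninj2, Cecr2, B4galnt3 and Kdm5a, the last of which encodes a demethylase of histone H3 lysine 4. Its libraries read 53.3%, 50.3% and 60.5% in G1 against 54.6%, 54.0% and 61.2% in G2/M, and its difference of -1.91 points came mainly from pair 2, at -3.69 points, over 75 windows.

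The bin next in order, chr17:24000000-24999999, holds Pkd1, the gene mutated in the commonest form of polycystic kidney disease, beside Abca17, Abca3 and Pdpk1, and also Rps2, which encodes a ribosomal protein, Rpl3l and Zfp598. It read 47.4%, 44.7% and 52.9% in G1, compared with 48.2%, 47.2% and 54.5% in G2/M, a difference of -1.64 points. The bin at the start of the assembled chromosome 7, chr7:3000000-3999999, holds Cacng7, Cacng8, Nlrp12 and Rps9 and was measured over 53 windows, among the fewest. It read 49.0%, 47.4% and 56.5% in G1 versus 49.8%, 50.9% and 56.7% in G2/M, a difference of -1.55 points, of which pair 3 showed -0.241. One of its windows spanned 476840 bp, and without it the bin stood at -1.49. The bin chr8:123000000-123999999, with Gm20388, Nup133, Fanca, Ankrd11, Zfp276 and Rpl13, was the most even, with -1.44, -1.46 and -1.62 points in the 3 pairs. Nup133 encodes a nuclear pore protein and Fanca a member of the Fanconi anaemia repair pathway.

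The windows with the lowest and the highest difference in these bins lay far apart. In an intron of Tmem191c, chr16:17278154-17281938, the G1 libraries read 42.0%, 58.3% and 48.9% and the G2/M libraries 68.5%, 67.6% and 66.3%, without overlap, a difference of -17.7 points. In the same bin, a window centred on an exon of Ccdc116, chr16:17137534-17142724, read 88.6%, 63.5% and 88.5% in G1 against 66.8%, 60.7% and 61.4% in G2/M, a difference of 17.2 points. The lowest window of the 5 bins, chr8:123892677-123894098, was centred on an exon in the overlap of Gm20388 and Acta1, the latter encoding skeletal muscle actin. It read 32.8%, 22.9% and 43.5% in G1, compared with 39.2%, 54.0% and 89.3% in G2/M, a difference of -27.8 points, with the highest G2/M library far above the rest and 1 G2/M library below the highest G1 library. A pair of windows in introns of Pkd1 went opposite ways, with chr17:24580957-24585962 at -18.0 points and chr17:24550507-24555137 at 15.1. In the bin on chromosome 7 a window in an intron of Leng1, chr7:3661221-3665262, stood at -19.0 points, with 42.4%, 14.0% and 22.1% in G1 versus 38.1%, 54.8% and 42.4% in G2/M, where the phases overlapped by 1 library. These windows are the extremes of their bins and are shown for scale.

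Further bins lay in the lowest 10% of each pair. The bin chr7:45000000-45999999, with Sult2b1, Grin2d, Tulp2 and Abcc6 and the ribosomal protein genes Rpl13a and Rpl18, read 40.0%, 37.8% and 44.7% in G1 against 40.9%, 40.2% and 45.9% in G2/M, a difference of -1.48 points, and held 67 coding starts. The bin chr11:100000000-100999999 holds Stat5b, Stat3, Acly and Zfp385c and a cluster of type I keratins, the filament proteins of epithelia. STAT3 is the transcription factor through which LIF sustains self-renewal in mESCs. This bin read 52.5%, 51.2% and 59.5% in G1, compared with 54.0%, 53.1% and 60.4% in G2/M, a difference of -1.45 points. The bins chr4:132000000-132999999, with Eya3, Epb41, Phactr4 and Gmeb1, and chr13:66000000-66999999, with Ptdss1, Mterf3, 2410141K09Rik and Uqcrb, stood at -1.44 and -1.43 points.

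Mean methylation over both phases, which the choice did not use directly, was lower in the least-excess bins. Relative to the other bins it stood at -7.37, -6.82 and -7.11 points in replicates 1 to 3, a mean gap of -7.10 ± 0.276 points (SD, n = 3; two-sided exact sign-flip test, p = 0.25, the smallest p that 3 replicates allow). With the 6 libraries as units the exact sign-flip p was 0.03125, though libraries of a pair are not independent. The gap was wider in G1, at -8.37, -7.77 and -7.72 points, than in G2/M, at -6.37, -5.86 and -6.50, which restates the choice. Part of the gap lay in unmethylated windows. Windows under 20% made up 8.26% of least-excess windows, 2.89% of the others and 0.477% of those in the highest bins. Among windows of 20% or more the gap was -4.33 ± 0.300 points (SD, n = 3; exact sign-flip p = 0.25).

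The difference was also split by the mean methylation of the window, with values the choice used. In windows under 20% the difference was -0.130 points in least-excess bins and 0.133 in other bins. In windows from 20% to 60% it was -0.906 and 0.848 points, and in windows from 60% to 80%, which are 57.9% of least-excess windows, -0.602 and 1.18 points. In windows of 80% or more, it was 0.209 points against 0.986, and the pairs of the least-excess windows were at 0.667, 0.00408 and -0.0428. In bins chosen on 2 pairs, windows from 60% to 80% stood in the pair left out at 0.164, -0.569 and -0.111 points, against 1.56, 0.921 and 0.885 in other bins, while windows under 20% differed from those of other bins by only -0.106, -0.0624 and -0.0240. Windows that hold the start of a coding gene gave -0.499 points against 0.699 in other bins, and those without one -0.642 against 1.09.

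**Figure D3:**
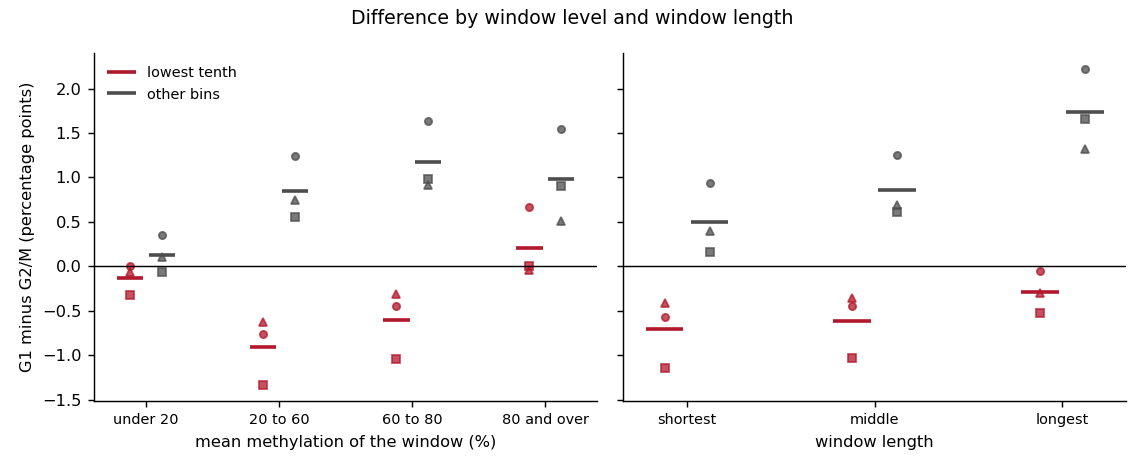
Difference between G1 and G2/M in percentage points by mean methylation of the window (left) and by window length (right, 3 classes of equal number of windows), in least-excess bins (red) and other bins (grey). Bars are means over the 3 matched pairs, and circles, squares and triangles are pairs 1, 2 and 3. The red bars lie below 0 in each class except in windows of 80% or more, at 0.209, and below the grey bars in all classes.

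The least-excess bins were CpG-dense and gene-rich. Their windows had a median length of 4307 bp, against 6004 bp in other bins and 10483 bp in the highest bins, a difference of -1697 bp between least-excess and other windows. The median GC content per bin was 46.1%, 41.3% and 37.4% in that order. A least-excess bin held a median of 19 starts of protein-coding genes, another bin 5 and a highest bin 1, and each of the 234 held at least 1. The bins are 10% of all bins and contained 5047 of 19885 coding starts, 25.4%. Coding genes covered a median of 62.0% of a least-excess bin, 39.3% of another bin and 11.5% of a highest bin. Repeats marked in the reference took up a median of 29.6%, 32.1% and 39.1% of a bin. Within bins of like window length, described further on, the order of repeats was the opposite. Bins within 5 Mb of the distal chromosome end were as frequent among least-excess bins, 3.42%, as among others, 3.27%.

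Across all 2343 bins the value rose with window length, with a Spearman rho of 0.747, and fell with GC content and with the number of coding starts, with rho of -0.764 and -0.707. In single pairs the rho with window length was 0.649, 0.673 and 0.560. Within the least-excess bins alone these relations were weaker, at 0.153 for length, -0.174 for GC content and -0.315 for coding starts. These correlations are descriptions over bins that share libraries, and the features move with one another, so the part of each was not tested.

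**Figure D4:**
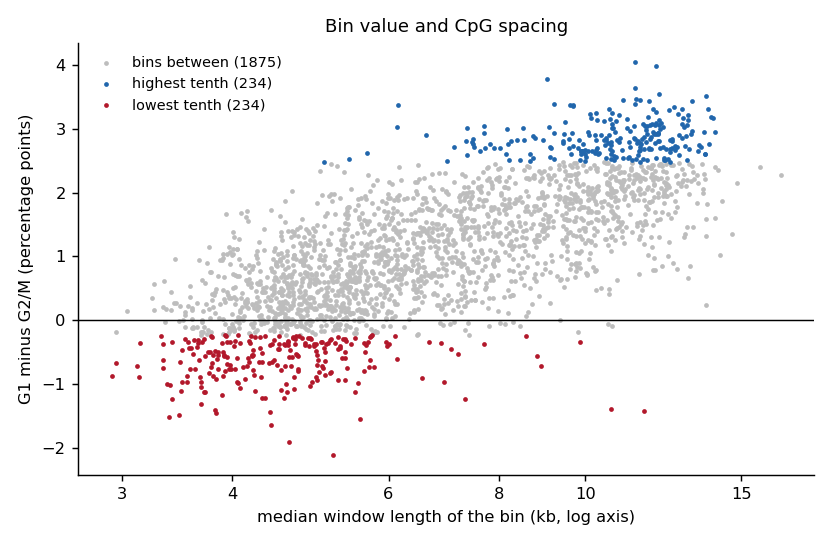
Bin value, as the difference between G1 and G2/M in percentage points, against the median window length of the bin in kb on a log axis, for 2343 bins. Least-excess bins (red) gather at the left, where windows are short and CpGs dense, with 14 at lengths above the median of all bins. The highest bins (blue) gather at the right.

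Many CpG-dense bins were not least-excess bins. All bins were split into 5 classes of equal number by median window length, and the shares of least-excess bins from the densest to the sparsest were 29.6%, 14.7%, 4.05%, 1.07% and 0.426%. The densest class, with median lengths up to 4681 bp, held 139 of the 234, but 330 of its 469 bins were not least-excess bins. Within this class the least-excess bins held a median of 22 coding starts against 11. The median over bins of their mean methylation was 56.6% against 64.6%. In the sparsest class, with 2 such bins, it was 61.2% against 63.6%. Repeats took up more of the least-excess bins than of other bins in each class, with medians of 28.5% against 26.3% in the densest and 48.7% against 43.2% in the sparsest, where only 2 least-excess bins lay. When windows were split by their own length into 3 classes, the least-excess windows stood at -0.707, -0.612 and -0.291 points from the shortest to the longest, and the windows of other bins at 0.501, 0.855 and 1.74. These differences are those the choice used. In bins chosen on 2 pairs, the longest windows stood in the pair left out at 0.616, 0.00669 and 0.0640 points for pairs 1, 2 and 3, where the longest windows of other bins stood at 2.20, 1.65 and 1.31. The shortest windows stood at -0.0519, -0.749 and -0.143 points there, against 0.772, 0.0340 and 0.322.

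Of the least-excess bins, 14 had windows longer than the median bin, and in 7 of these all 3 pairs were below 0. One was chr13:66000000-66999999, with a median window length of 11647 bp and pairs at -1.71, -1.61 and -0.950 points. It held 61 windows, and its standard error over windows, 0.825 points, was the largest among least-excess bins. Its median window stood at 0.0176, -0.455 and 0.266 points in the 3 pairs, and at -0.895 for the difference averaged over pairs. Another was chr2:177000000-177999999, which holds Zfp970 and Zfp972 and is 56.6% repeats, with pairs at -1.13, -2.00 and -1.03 points. Also among them was chr4:145000000-145999999, with Vps13d, Tnfrsf8, Gm13212 and Zfp980, at -0.501, -1.78 and -1.40 points. The Zfp genes of such clusters encode zinc-finger proteins, many of which silence transposable elements in early development. Clusters of these genes also lay at chr13:62000000-62999999, with Zfp808, Zfp934 and Zfp935, at -0.523 points, and at chr17:22000000-22999999, with Zfp943 and Zfp946, at -0.334. Members of such clusters can be near-identical in sequence, and how reads were shared among them was not tested. The bins of this paragraph were picked out after their values were seen.

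The bins were spread over all autosomes but unevenly. Chromosome 11 held 31 of them among its 114 bins, 27.2%, while the other autosomes together stood at 9.11%. In the choices made on 2 pairs it held between 24 and 32. The lowest shares were on chromosome 3, with 5 of 156 bins, chromosome 14, with 4 of 117, and chromosome 1, with 7 of 188. Chromosome 11 also had short windows, with a median of 5232 bp per bin. Within the densest of the 5 classes 19 of its 35 bins, 54.3%, were least-excess bins, against 27.6% of the bins of the other autosomes. There its bins had mean differences of -0.249, -0.644 and -0.0727 points in the 3 pairs, against 0.479, -0.256 and 0.171 on the other autosomes. In the next class 8 of 33 bins, 24.2%, were least-excess bins, against 14.0%, and the mean differences were 0.589, 0.0994 and 0.511 points against 0.904, 0.208 and 0.417, so that chromosome 11 stood higher in pair 3. All of these values entered the choice.

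**Figure D5:**
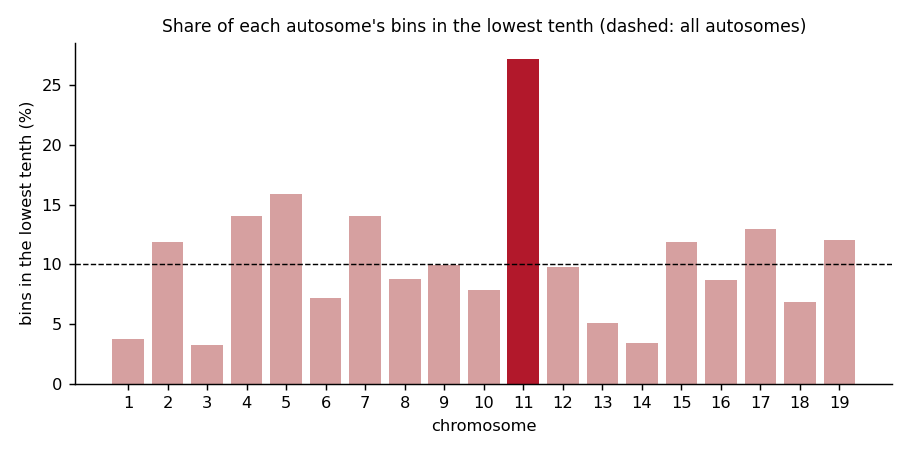
Share in percent of the bins of each autosome that are least-excess bins. The dashed line marks the share over all autosomes, near 10%, and chromosome 11 (dark bar) stands at 27.2%.

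Least-excess bins often adjoined one another. Of the 234, 114 (48.7%) had a least-excess neighbour, and they formed 170 runs, 120 of them of a single bin. The longest run, chr15:78000000-82999999, took in 5 bins with 124 coding starts, among them Cbx7, which encodes a Polycomb protein that binds H3 lysine 27 methylation, Ep300, which encodes a histone acetyltransferase, Srebf2, a regulator of cholesterol synthesis, and Rpl3. Over its 1086 windows it read 55.4%, 54.2% and 62.8% in G1 versus 56.3%, 55.9% and 63.0% in G2/M, a difference of -0.942 points. The run chr11:3000000-6999999, with Nf2, Limk2 and Ogdh, comprised 4 bins at -0.718 points, and the run chr5:137000000-140999999, with Epo, Stag3, Prkar1b and Mcm7, 4 bins at -0.576 points. Taken as a whole, each of the 3 runs was below 0 in each pair, with pair 3 the smallest, at -0.261, -0.186 and -0.261 points. Single bins were mixed, and that of Stag3 and Mcm7 stood at 0.360, -3.29 and 0.706 points in the 3 pairs. Every run held at least 1 bin with pair 3 above 0 and at least 1 below 0 in all pairs.

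Gene lists were counted by the bins in which their members start, and set against 25.4% of all protein-coding genes. The list of DNA methylation genes had 8 of 17 in least-excess bins. When bins were chosen within classes of window length instead, it had 2 of 17, 11.8%, which is below the 18.2% of all protein-coding genes under that choice. The 8 were the de novo methyltransferase genes Dnmt3a and Dnmt3b, Uhrf1, whose product recruits DNMT1, the dioxygenase genes Tet1 and Tet3, the binding protein genes Mbd1 and Mbd4, and Dppa3, whose product protects methylation in the early embryo. The bin of Dnmt3b stood at -1.02 points, that of Uhrf1 at -0.668 and that of Dnmt3a at -0.281. Pair 1 was above 0 in each of these, at 0.0773, 0.106 and 1.08 points, and pairs 2 and 3 were below 0. The bins of Tet1 and Mbd1 were above 0 in pair 3, at 0.382 and 1.36 points. Those of Mbd4, Tet3 and Dppa3 were below 0 in each pair. Genes of the replication fork and of licensing had 9 of 31 in least-excess bins, or 29.0%, near the share of all protein-coding genes. When bins were chosen within classes of window length, they had 5 of 31, or 16.1%, below the 18.2% of all protein-coding genes. Among the 9 were Mcm7, Pold1, Pole, Fen1 and Chaf1a. The bins of Mcm7 and Pole were above 0 in pairs 1 and 3 and that of Chaf1a in pair 1, while those of Pold1 and Fen1 were below 0 in each pair. Cytosolic ribosomal protein genes had 29 of 75, pluripotency factors 6 of 19, including Nanog, Sox2, Klf2 and Tfcp2l1, and Zfp genes 108 of 354. The lists share bins, so their members are not independent, and the values are those of megabase bins, not of the genes.

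Other lists gave lower or similar shares. Olfactory receptor genes, which sit in large AT-rich clusters, had 24 of 1019 in least-excess bins, or 2.36%, and vomeronasal receptor genes 8 of 265, or 3.02%, but 101 of 265, or 38.1%, when bins were chosen within classes of window length. Lineage transcription factors had 1 of 30, which was Nkx2-5, and imprinted genes 4 of 28, namely Mest, Mcts2, Nnat and Zrsr1. Hox genes had 11 of 39, of which 10 belong to the Hoxb cluster in the single bin chr11:96000000-96999999, at -1.04 points. Keratins had 13 of 49, all in the bin of Stat3. Replication-dependent histone genes had 0 of 61 and clustered protocadherins 0 of 56, but these occupy only 5 and 2 bins.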

How the data were processed

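Percentages of CpG methylation per 100-CpG window in 6 EM-seq libraries were deposited by the authors, who trimmed reads, aligned them to GRCm38 with Bismark and Bowtie2, dropped duplicates, poorly mapped reads and regions of outlying coverage, and kept windows observed in all datasets. The submitters' processing notes name bcl2fastq 2.19.1, FastQC 0.11.7, MultiQC 1.7, Trim Galore 0.6.4 and Bismark 0.22.1. No read counts accompany the percentages and no normalization between libraries was stated, so depth is unknown.

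Groups and replicate numbers came from the labels. Bins of 1 Mb with 50 or more windows were formed and the lowest 10% taken, as the report states. The bins, gene lists and tests were chosen with earlier results of these data known. Bin means were tested in R 4.3.3 using limma 3.58.1 (lmFit, eBayes with trend, Benjamini-Hochberg, threshold 0.05), and levels with exact sign-flip tests. The primary model had no block. Both fits were also run on simulated bins built from the means and spread of these data, with an outcome not reported here. Same-numbered libraries were treated as matched, since the study describes matched replicates. Their bin deviations correlated at 0.456, 0.244 and 0.406, against -0.428 to 0.0197 for other combinations. These correlations share libraries and are not independent, so their contrast is a description and no test of the pairing. P-values without a block and of the sign-flip test over 3 replicates measure the spread between these cultures of a single line. With the block they measure the spread between cultures in the difference within a matched pair. Features came from GENCODE vM21 and the GRCm38 sequence, in Python 3.11.15 with numpy 2.4.6 and pandas 2.3.3; figures used matplotlib 3.10.9.

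Bins were named by a rule: the 5 lowest, those in the lowest 10% of each pair, up to 8, and the longest 3 runs, with up to 4 coding genes of largest overlap per bin and any listed gene that starts there, and in the 5 lowest bins the windows with the lowest and highest difference. Alternatives were other bin widths, offsets and window minimums, medians, length weighting, a log2 ratio scale, filters on level, other shares of bins, centring, the replicate block, and leaving out libraries or pairs. Choosing within 5 classes of window length, leaving out windows of over 100 reference CpGs, and block with centring were added after seeing the data. Some genes that the rule names are not reported here. Replication timing and the study's lists of differential windows were not analysed here.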

Additional observations from a re-analysis of the deposited data

How the results depend on the processing

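The difference relative to other bins in the pair left out was below 0 in all 3 pairs under each of 14 alternatives and ran from -1.41 to -0.748 points, the latter with bins chosen within 5 classes of window length. The difference over least-excess windows stayed below 0 in alternatives that kept the libraries balanced, at -1.70 with each library centred on its median and -0.338 with the lowest 20% of bins. The lowest bins were chosen on this same contrast each time, so the sign largely follows from the choice and is a description. Centring also takes out the typical difference between the phases. Over choices without a library or pair it ran from -3.20 to 1.68, since replicates differ in level more than the phases do, and the value with the replicate block was -0.632, as without it. The level gap ran from -8.54 to -3.53 points, with -7.10 points and an exact p of 0.03125 when the 6 libraries were the units. The gap in median window length moved to -1571 bp with bins of 500 kb, -1793 bp with bins of 2 Mb, -1162 bp with 100 or more windows per bin, -1813 bp in windows of 20% to 80%, -1916 bp with the lowest 20% of bins, -250 bp within the 5 classes of window length and -1606 bp without windows of over 100 reference CpGs. Without a library or pair it ran from -1717 to -1578 bp. The number of bins called by limma, out of 2343, was 0 without a block in each alternative and each choice of libraries. It was 1092 with the replicate block, 16 of them lower in G1, and 661 with block and centring. Of the 661, 288 were lower in G1 relative to the typical window, and 232 of those were least-excess bins, which largely restates the choice. With centring and no block, 402 bins had an unadjusted p under 0.05. Depth limits all of this: a coverage minimum could not be varied without counts.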

Other observations

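When the lowest bins were taken within each of 5 classes of window length, a choice made after seeing the data, 235 bins were chosen, of which 120 were least-excess bins. In the sparsest class the chosen bins still had a G1 excess, with a mean of 0.839 points against 2.35 in the other bins of that class, and in the densest class they stood at -1.06 against 0.227. They were richer in coding starts than the bins around them in each class, with medians of 26 against 12 in the densest and 3 against 1 in the sparsest. Methylation in the chosen bins stood at 53.7% against 62.2% in the densest class, but at 63.0% against 63.2% in the sparsest. The share of Zfp genes in the chosen bins was 31.9%, beside 18.2% of all protein-coding genes. Vomeronasal and Zfp genes lie in clusters that share bins, so their number is not a number of independent places.

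Among bins with many Zfp genes the values differed, as in 3 picked out after their values were seen. The bin chr7:127000000-127999999, with 10 of them, stood at -1.40 points, while chr13:67000000-67999999, with 23, stood at 0.354 and chr17:21000000-21999999, with 14, at 0.653.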
